A study of Mus musculus with 165 samples.

Results

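Transcripts of 10 genes of the ATF4 amino acid stress response were followed in PUER cells through a neutrophil-directed and a macrophage-directed differentiation. The genes were Atf4, Atf5, Ddit3, Trib3, Chac1, Asns, Psat1, Phgdh, Sesn2 and Slc7a11. They were chosen by name, as genes of this pathway, and all 10 were found among the 36255 genes of the normalized count table. When amino acids run short or unfolded protein collects in the endoplasmic reticulum, kinases phosphorylate the translation factor eIF2alpha, which lowers protein synthesis in general but favours translation of the mRNA for the bZIP transcription factor ATF4. ATF4 then raises genes that make amino acids, import them and charge them onto tRNA. Part of this control lies in translation and protein stability, which mRNA counts do not show.

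PUER is a single line of mouse blood cell progenitors, whose source the study names both as fetal liver and as bone marrow. The cells lack Spi1, the gene of the myeloid transcription factor PU.1. They carry a fusion of PU.1 with the hormone-binding part of the oestrogen receptor, which 4-hydroxy-tamoxifen (OHT) activates. Every group shares this genotype, which no library here goes without. Undifferentiated cells (3 libraries) were kept in IL3 without OHT, and the GCSF 0h group (3 libraries) had IL3 replaced by GCSF for 48 h, also without OHT. In GCSF conditions (78 libraries) 100 nM OHT was then added to the GCSF cultures, and in IL3 conditions (81 libraries) 200 nM OHT was added to cells in IL3, each with 27 time points from 1h to 168h. Every group had 3 libraries except GCSF-OHT 96h, 112h and 152h with 2. Cytokine, OHT dose and pre-treatment differed together, so their parts cannot be told apart. Part of the medium was replaced, with fresh OHT, at 40h, 88h and 136h.

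The libraries held 14600246 to 33147945 reads on genes (median 21960878), and 1 read was worth 0.652 to 1.84 normalized counts. No 2 replicates agreed within sampling noise: the chi-square per gene was 2.25 to 68.5 over 162 pairs. The replicates were separate wells of one line, and p-values measure the spread between wells. The study seeded each time point in its own plate, so time and plate cannot be told apart between time points. Cells of all time points after 24h were detached with trypsin. Comparisons of these with earlier time points, both endpoints among them, therefore also differ in trypsin. The p-values cover neither plate nor trypsin. Spi1 transcript, endogenous or from the fusion gene, was 4482 to 13387 normalized counts in every library. Of the marker lists, 8 neutrophil markers summed to 260412 to 267007 in undifferentiated cells, 334169 to 371471 at GCSF 0h, 701002 to 747554 at GCSF-OHT 168h and 232789 to 265374 at IL3-OHT 168h. The 6 monocyte and macrophage markers summed to 783.8 to 829.5, 296.6 to 357.6, 7281 to 8290.2 and 9633 to 10710.2 in the same groups. Cd3e, which marks T cells, stayed at or under 3 reads in all libraries. In these bulk samples a change in the share of a cell type cannot be told from a change of RNA per cell.

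In the GENCODE vM21 annotation of GRCm38 the transcription factor genes lie at chr15:80255184-80257541 (Atf4, plus strand), chr7:44812256-44816658 (Atf5, minus strand) and chr10:127290774-127296288 (Ddit3, plus strand). Their targets lie at chr2:152337422-152344032 (Trib3, minus), chr2:119351229-119354381 (Chac1, plus), chr6:7675169-7693254 (Asns, minus), chr19:15904678-15947337 (Psat1, minus), chr3:98313170-98339990 (Phgdh, minus), chr4:132492032-132510501 (Sesn2, minus) and chr3:49892526-50443614 (Slc7a11, minus). Atf5 overlaps Nup62 and Il4i1 on the other strand, and Ddit3 overlaps Mars, itself a tRNA synthetase gene, on the other strand and has a further gene record under its own name. Sesn2 overlaps Gm12981, typed as antisense though on the same strand, Slc7a11 overlaps the antisense gene Gm37854 and processed pseudogenes, and Psat1 the processed pseudogene Gm3329. Atf4, Trib3, Chac1, Asns and Phgdh overlap no other gene. Whether counting used strand is not given in the sources used here, so reads in the overlapping parts are uncertain.

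ATF4 binds DNA with a C/EBP partner at a composite element whose core reads TGATGNAA, or TTNCATCA on the other strand. These letters were sought on both strands of the RefSeq promoter windows of GRCm38.p6, from 250 bases before to 50 after each start. A match stood in 3.97% of the 32851 windows in the table. All 10 genes had a window, 12 windows in all, and 4 windows of 4 genes held a match, namely Chac1, Trib3, Slc7a11 and Asns. Atf4, Atf5, Ddit3, Psat1, Phgdh and Sesn2 had none in these windows. The stretches around the matches are shown because they are the sequence feature that part of the members share, with the matched letters in capitals:
Chac1 (chr2:119351019-119351086, plus strand): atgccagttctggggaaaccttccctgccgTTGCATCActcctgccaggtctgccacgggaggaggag
Trib3 (chr2:152344029-152344056, minus strand): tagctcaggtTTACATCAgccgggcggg
Slc7a11 (chr3:50443623-50443709, minus strand): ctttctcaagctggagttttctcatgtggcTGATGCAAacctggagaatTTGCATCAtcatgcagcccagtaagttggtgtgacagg
Asns (chr6:7693210-7693262, minus strand): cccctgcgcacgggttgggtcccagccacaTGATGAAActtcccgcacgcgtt
The Chac1 match began 193 bases before the start. The Asns match began 23 bases before the RefSeq start, a place that lies inside the GENCODE gene given above. Slc7a11 held 1 match on each strand, which began 66 and 47 bases before the start, whereas only 0.0700% of all windows held 2 or more. The Trib3 match lay 15 bases after the RefSeq start, a place that is upstream of the GENCODE start. A match describes letters and does not show binding. The 4 genes with a match took different courses, as given below.

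Per kilobase of exon, Atf4 was the most abundant of the 10 transcripts in undifferentiated cells at 3821 ± 206.8 normalized counts per kb (mean ± SD, n = 3). Atf5, which encodes a bZIP factor related to ATF4, stood at 2286 ± 146.7 per kb and Ddit3, which encodes the stress factor CHOP, at 1190.0 ± 97.3 per kb. Trib3, a pseudokinase that binds ATF4 and CHOP, was at 813.4 ± 32.2 per kb. The effectors followed, with Sesn2, a leucine sensor that restrains mTORC1, at 448.5 ± 6.27 per kb and Psat1 and Phgdh, enzymes of serine synthesis, at 325.1 ± 24.7 and 161.4 ± 9.98 per kb. Asns, the asparagine synthetase, was at 298.5 ± 14.8 per kb, and the SDs of Asns and Psat1 overlap, so their order is not resolved. Chac1, an enzyme that degrades glutathione, was at 145.4 ± 16.1 per kb and Slc7a11, the cystine and glutamate exchanger, was lowest at 85.8 ± 3.88 per kb, over a union of exons that includes long isoforms. All values below are normalized counts per library, which compare a gene between samples and not genes with each other.

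**Figure D1:**
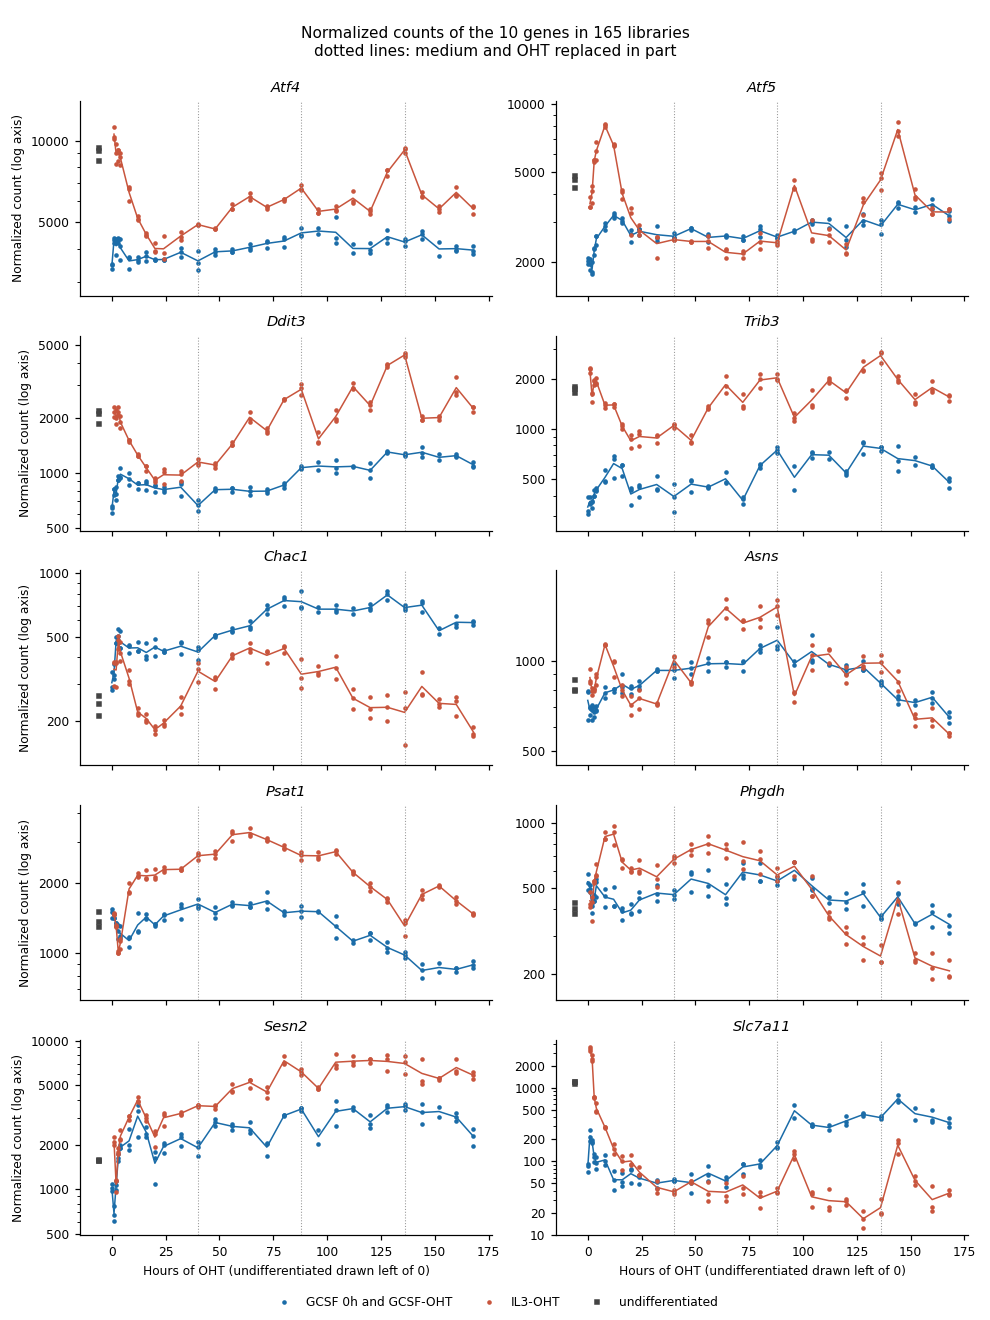
Normalized counts (log axis, scale differs by panel) of the 10 genes against hours of OHT, 1 point per library. Blue marks GCSF 0h and GCSF-OHT, red IL3-OHT and grey squares the undifferentiated cells, lines join the means, and dotted lines mark the partial medium replacements at 40h, 88h and 136h. Ddit3 in IL3 conditions climbs to a mean of 4403 at 136h and stands at 1987 at 144h, whereas in GCSF conditions it stays between 663 and 1301.

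The first comparison asks what 48 h of GCSF in place of IL3 did before OHT. limma was run on normalized counts as log2 after adding 1. Calls needed a Benjamini-Hochberg adjusted p under 0.05 over all genes and a log2 fold change of more than 0.58 in size. Of the 10 genes, 6 fell and the other 4 did not pass, beside 20.7% of all 17414 genes tested that fell. Their median log2 fold change was -0.89, beside -0.09 for all genes.

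Atf4 was 8463, 9169.7 and 9399 normalized counts in the undifferentiated libraries and 3365, 3477 and 3499.5 in GCSF 0h. The groups did not overlap (log2 fold change -1.38 ± 0.05, adjusted p = 5.6e-47). Ddit3 went from 1853, 2087 and 2176 to 605.8, 643.7 and 657.1 (log2 fold change -1.68 ± 0.06, adjusted p = 1.4e-47). Trib3 fell further, from 1653, 1747 and 1786 to 308.7, 325.3 and 390.4 (log2 fold change -2.34 ± 0.10, adjusted p = 6.9e-45). In each of these genes the lowest undifferentiated library was over the highest GCSF 0h library. Slc7a11 showed the widest gap, with 1132, 1219.5 and 1230.5 before and 72.6, 85.9 and 93.2 after (log2 fold change -3.82 ± 0.21, adjusted p = 2.8e-33). Atf5 fell with log2 fold change -1.18 ± 0.07 and Sesn2 with -0.61 ± 0.11. Sesn2 lost its call without replicate 1, at -0.57, and with edgeR, at -0.56. The biosynthetic enzymes did not pass. Asns (-0.16 ± 0.06), Psat1 (0.11 ± 0.05), Phgdh (0.41 ± 0.10) and also Chac1 (0.35 ± 0.10) stayed under the fold threshold. Between the same groups 4 of the 8 neutrophil markers rose and 1 fell, and 1 of the 6 monocyte and macrophage markers rose and 5 fell, with the sums given above. Their part in the fall of the members was not tested.

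The first hours of OHT were compared next, 4h against the start of each course. In GCSF conditions 3 of the 10 genes rose, beside 3.21% of all genes. Sesn2 was 971.3, 1019.6 and 1085 at GCSF 0h, 616.2, 676.4 and 767.8 at 1h, a step that was not tested, and 1883, 1902 and 1979.5 at 4h. The 4h libraries were all above the start (log2 fold change 0.91 ± 0.11, adjusted p = 5.4e-11). Ddit3 rose from 605.8, 643.7 and 657.1 to 939.2, 955.2 and 1057 (log2 fold change 0.63 ± 0.06, adjusted p = 7.4e-15). Chac1 rose from 280.9, 289.8 and 339.98 to 443.6, 444.99 and 529.9 (log2 fold change 0.64 ± 0.10, adjusted p = 2.0e-07), a call that was lost without replicate 1, at 0.50. Atf4 itself was 0.22 on the log2 scale and did not pass.

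In IL3 conditions 1 gene rose and 1 fell by 4h, beside 8.63% and 13.5% of all genes. Chac1 rose from 210.3, 240.8 and 262.9 to 383.5, 417.2 and 471.99 (log2 fold change 0.83 ± 0.10, adjusted p = 6.8e-12). Slc7a11 was 1132, 1219.5 and 1230.5 in undifferentiated cells, 3161, 3456 and 3629 at 1h and 475.5, 483.6 and 629.4 at 4h. The 1h libraries lie above and the 4h libraries below the start without overlap (log2 fold change -1.18 ± 0.21, adjusted p = 9.8e-07 at 4h). Atf5 was 3479.9, 3489 and 3872 at 1h and 7923, 8057 and 8152 at 8h, its highest mean of the IL3 course. Atf4 was 10151, 10391 and 11290.4 at 1h and 5992, 6641 and 6746 at 8h. The 8h libraries lay above the 1h libraries in Atf5 and below them in Atf4, with no overlap, though this step was not tested.

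Between 8h and 12h, Slc7a11 was the member called in each cytokine. It fell from 88.3, 102.1 and 124.1 to 40.1, 55.5 and 73.3 in GCSF conditions (log2 fold change -0.91 ± 0.21, adjusted p = 8.6e-04), where 0.425% of all genes fell. The GCSF call was lost without replicate 3, at -0.57. In IL3 conditions it fell from 288.00, 291.3 and 296.6 to 127.01, 148.4 and 174.5 (log2 fold change -0.97 ± 0.21, adjusted p = 1.3e-04), where 2.50% of all genes fell. Other members in IL3 had an adjusted p under 0.05 and missed the fold threshold. Chac1 (-0.52 ± 0.10), Atf4 (-0.32 ± 0.05), Atf5 (-0.29 ± 0.07), Ddit3 (-0.26 ± 0.06) and Asns (-0.24 ± 0.06) were lower. Sesn2 (0.38 ± 0.11) and Psat1 (0.20 ± 0.05) were higher. The members' median there was -0.25, beside -0.01 for all genes. Sesn2 was 2259.8, 3346 and 3707 at GCSF-OHT 12h against 1839, 1976 and 2536 at 8h, which overlap, and it did not pass (0.53 ± 0.11) unless replicate 1 (0.60) or replicate 3 (0.71) was left out.

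The partial replacements of the medium were compared next. Each replacement was tested as the time point 8 h later against the replacement time, in a fit of all 56 groups and 17439 genes. It brought medium, cytokine and OHT at once, 8 h also passed and the plates differed, so these cannot be told apart. The IL3 results at 88h and 136h rest wholly on the libraries of IL3-OHT 96h and 144h, which the study excluded because they differed from the time points around them. Its outlier test on principal components had flagged none. The study proposes that the differences could be passing effects of the OHT added before these time points. Over 17439 genes, which are not independent replicates, log2 means at IL3-OHT 96h had Pearson's r of 0.986 with 88h and 0.989 with 104h, against 0.994 between 88h and 104h. At IL3-OHT 144h r was 0.983 with 136h and 0.992 with 152h, against 0.988 between 136h and 152h. Only around 96h were the flanking time points the most alike. Without these libraries neither IL3 change can be computed. After the replacement at 40h no member passed in either cytokine by limma, edgeR or DESeq2, although 7 members in GCSF and 3 in IL3 had an unadjusted p under 0.05. Of these, Sesn2 (log2 fold change 0.57 ± 0.12, adjusted p = 2.4e-04) and Ddit3 (log2 fold change 0.29 ± 0.06, adjusted p = 7.2e-04) in GCSF and Asns (log2 fold change -0.25 ± 0.06, adjusted p = 0.00630) and Trib3 (log2 fold change -0.30 ± 0.10, adjusted p = 0.0431) in IL3 had an adjusted p under 0.05 and missed the fold threshold. Sesn2 in GCSF passed without replicate 1 (0.63). In GCSF 0.419% of all genes rose and 0.430% fell, and in IL3 0.224% and 0.424%.

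After the replacement at 88h in IL3 conditions 3 members fell and 2 rose, beside 9.27% and 10.8% of all genes. Asns was 1416, 1519.7 and 1594 at 88h and 728.8, 776.8 and 786.6 at 96h (log2 fold change -0.98 ± 0.06, adjusted p = 7.9e-28). Ddit3 went from 2647, 2891 and 3045 to 1461, 1471 and 1670.1 (log2 fold change -0.90 ± 0.06, adjusted p = 6.7e-25). Trib3 went from 1959.8, 1985 and 2133 to 1111, 1169.7 and 1241 (log2 fold change -0.79 ± 0.10, adjusted p = 2.6e-12). In all 3 genes every 96h library lay below every 88h library. Atf5 moved the other way, from 2377, 2416 and 2478 to 4213, 4238 and 4617 (log2 fold change 0.84 ± 0.07, adjusted p = 1.3e-20), and so did Slc7a11, from 36.8, 38.3 and 42.8 to 107.4, 125.4 and 138.7 (log2 fold change 1.63 ± 0.21, adjusted p = 7.1e-11). By 104h Atf5 was back at 2462, 2519 and 3064 and Slc7a11 at 24.1, 36.3 and 38.3, ranges that overlap the 88h values in both genes. The Asns mean at 104h, 1032 ± 98.0 (SD, n = 3), lay between those of 96h (764.1) and 88h (1509.8).

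The replacement at 136h in IL3 conditions came when Ddit3 stood highest. Its mean went from 1104 ± 34.9 (SD, n = 3) at 48h to 2861 ± 200.4 at 88h and, after its fall at 96h, to 4403 at 136h, a course not tested step by step. At 136h the 3 libraries held 4281, 4429 and 4498, and at 144h 1954, 1956 and 2051 (log2 fold change -1.15 ± 0.06, adjusted p = 3.5e-33). Ddit3 was the member that fell, where 11.8% of all genes did. Atf4 went from 9042, 9358 and 9417 to 6211, 6279.8 and 6495, which do not overlap, but its log2 fold change of -0.55 ± 0.05 was just under the fold threshold (adjusted p = 4.2e-17). Trib3 was -0.47 ± 0.10 and Asns -0.20 ± 0.06, also under it. By 152h the means of Atf4 and Asns had not returned, at 5612 and 636.9 against 6329 and 853.7 at 144h. Before the replacement the means of Atf4 and Atf5 had climbed, from 5492 and 2251 at 120h to 7684 and 3567 at 128h. These courses were not tested step by step.

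There 3 members rose at 144h, beside 14% of all genes. Slc7a11 went from 19.1, 19.9 and 31.1 to 126.3, 178.9 and 194.6 (log2 fold change 2.79 ± 0.21, adjusted p = 3.4e-23). Atf5 went from 4149, 4727 and 4955 to 7236, 7630.3 and 8304 (log2 fold change 0.75 ± 0.07, adjusted p = 1.2e-17), and Phgdh from 225.9, 226.8 and 272.7 to 379.99, 432.6 and 532.2 (log2 fold change 0.88 ± 0.11, adjusted p = 1.5e-12). The groups did not overlap in these genes. By 152h Phgdh was at 227.97, 232.98 and 250.2, Slc7a11 at 48.3, 54.4 and 63.3 and Atf5 at 3790.1, 3889 and 4191. With upper-quartile scaling the share of higher genes among all those called at this step was 65.8% in place of 54.2%, and the members called were as many. Marker genes moved at both IL3 steps. The sum of the 8 neutrophil markers was 350671 to 379135 at 88h and 313504 to 323496 at 96h, and 279364 to 302970.0 at 136h and 254910.3 to 259246 at 144h. Of these markers Mpo (-1.57 ± 0.11 at 88h and -1.22 ± 0.11 at 136h) and Elane (-0.87 ± 0.07 and -0.75 ± 0.07) fell, and the other 6 did not pass at either step. The sum of the 6 monocyte and macrophage markers was 8545 to 8995 at 88h and 9598 to 9938 at 96h, and 8976 to 9225 at 136h and 9060.4 to 9353 at 144h, and of these Egr2 rose at both (1.51 ± 0.22 and 2.11 ± 0.22). The part of these markers in the changes of the members was not tested.

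In GCSF conditions fewer members passed both thresholds after the replacements at 88h and 136h. At 88h Slc7a11 rose from 151.3, 154.9 and 186.6 to 397.3 and 584.3 in the 2 libraries of 96h (log2 fold change 1.55 ± 0.24, adjusted p = 1.1e-07), where 1.14% of all genes rose. Sesn2 fell from 3358, 3497 and 3539 to 2022 and 2496 (log2 fold change -0.62 ± 0.13, adjusted p = 8.5e-05), where 4.05% fell. At 136h Slc7a11 rose again, from 376.1, 399.4 and 412.7 to 646.2, 691.3 and 796.4 (log2 fold change 0.84 ± 0.21, adjusted p = 0.00213), where 1.39% rose, and no other member passed. Ddit3 was 0.03 ± 0.07 at 88h and 0.04 ± 0.06 at 136h. Trib3 was -0.56 ± 0.11 at 88h (adjusted p = 1.7e-05), under the fold threshold unless replicate 2 was left out (-0.59). Asns at 88h (-0.25 ± 0.07) also had an adjusted p under 0.05 and missed the fold threshold. So did Atf5 (0.32 ± 0.07), Phgdh (0.31 ± 0.11), Psat1 (-0.22 ± 0.05) and Asns (-0.18 ± 0.06) at 136h. Slc7a11 thus rose after each of the later replacements in both cytokines. Monocyte and macrophage markers moved in GCSF too. The 6 summed to 4214 to 4549 at 88h and 4759 to 4862 at 96h. At 136h and 144h they summed to 5334 to 5710 and 6161 to 6987. Of these Adgre1 rose at both (1.40 ± 0.27 and 1.67 ± 0.24), Mmp12 at 88h (1.30 ± 0.48) and Egr2 at 136h (0.62 ± 0.22). The 8 neutrophil markers did not pass at either step. The part of these markers was not tested.

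**Figure D2:**
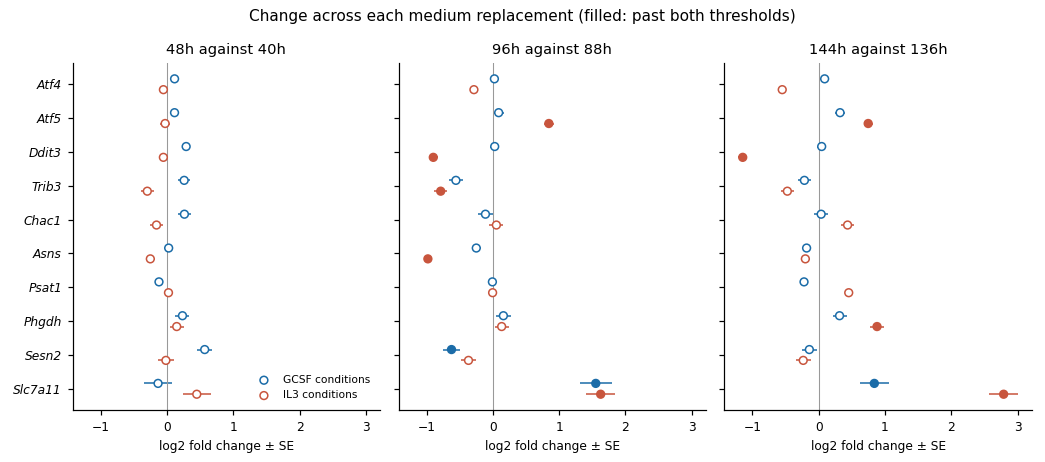
Log2 fold change (x axis, ± SE from limma) of each gene 8 h after each partial medium replacement against the replacement time, blue for GCSF and red for IL3 conditions. Filled points passed both thresholds. At 96h and 144h Ddit3 in IL3 conditions lies at -0.90 and -1.15 while in GCSF it lies at 0.03 and 0.04, and Slc7a11 lies right of 0 in both cytokines.

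The difference between the cytokines at each replacement was tested itself, a comparison added after the values had been seen. At 88h 3 members differed, beside 10.8% of all genes. The difference, GCSF minus IL3, was 0.93 ± 0.10 for Ddit3, 0.73 ± 0.10 for Asns and -0.76 ± 0.11 for Atf5. In GCSF itself these genes were 0.03 ± 0.07, -0.25 ± 0.07 and 0.09 ± 0.08, and none of them passed. At 136h 4 members differed, beside 17.9%. They were Ddit3 (1.19 ± 0.09), Atf4 (0.64 ± 0.08), Psat1 (-0.67 ± 0.08) and Slc7a11 (-1.95 ± 0.30). The median of all genes in this difference was 0 and moved to -0.15 with upper-quartile scaling, under which Atf4 lost its call (0.48) while Atf5 (-0.58) and Phgdh (-0.73) gained one. The share of higher genes among all those called was 44.5% and 25.4% in the respective scalings. At 40h Sesn2 differed (0.59 ± 0.16, adjusted p = 0.00856), beside 2.20% of all genes. That call was lost without replicate 2 (0.54), without replicate 3 (0.54) and with DESeq2 (0.58), and without replicate 1 Trib3 (0.73) was called as well.

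The endpoints of both courses were compared with the undifferentiated cells, a control that they share with the pre-treatment comparison. At GCSF-OHT 168h 1 member was higher and 5 lower, beside 15.5% and 23.6% of all genes. At IL3-OHT 168h 1 was higher and 3 lower, beside 10.2% and 15.2%. Slc7a11 was 292.2, 332.5 and 388.5 at GCSF-OHT 168h and 34.8, 35.8 and 40.4 at IL3-OHT 168h, all below the undifferentiated 1132, 1219.5 and 1230.5 (log2 fold change -1.83 ± 0.21 and -4.98 ± 0.21). Atf4 was 3815, 3927 and 4099.7 and 5370.4, 5679.9 and 5767, below the undifferentiated libraries in both (-1.19 ± 0.05 and -0.68 ± 0.05).

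Other members ended apart in the 2 courses. Sesn2 reached 5531, 5853 and 6135 at IL3-OHT 168h against 1539, 1554 and 1582 in undifferentiated cells (log2 fold change 1.90 ± 0.11, adjusted p = 1.1e-30). At GCSF-OHT 168h it was 1971, 2278 and 2545, which did not pass (0.53 ± 0.11) unless replicate 3 was left out (0.64). Chac1 was higher at GCSF-OHT 168h, with 568.6, 586.8 and 595.5 against 210.3, 240.8 and 262.9 (log2 fold change 1.30 ± 0.10, adjusted p = 3.0e-22), and was -0.42 ± 0.10 at IL3-OHT 168h. Trib3 was lower at GCSF-OHT 168h (-1.85 ± 0.10) and so was Ddit3 (-0.88 ± 0.06), while at IL3-OHT 168h they were -0.15 ± 0.10 and 0.14 ± 0.06. Phgdh was lower at IL3-OHT 168h, with 193.2, 194.9 and 231.6 against 376.97, 399.9 and 426.6 (log2 fold change -0.96 ± 0.10, adjusted p = 1.7e-14). Psat1 was lower at GCSF-OHT 168h (-0.63 ± 0.05), a call lost without replicate 3 (-0.57).

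Against GCSF 0h, which is also the later group of the pre-treatment comparison, 5 members were higher and 2 lower at GCSF-OHT 168h, beside 12.1% and 12.6% of all genes. The higher genes were Slc7a11 (log2 fold change 1.99 ± 0.21, adjusted p = 1.1e-14), Sesn2 (1.14 ± 0.11), Chac1 (0.95 ± 0.10), Ddit3 (0.80 ± 0.06) and Atf5 (0.66 ± 0.07). Ddit3 was 605.8, 643.7 and 657.1 at GCSF 0h and 1078, 1096 and 1144 at 168h, without overlap and below the undifferentiated libraries. The serine synthesis genes were the ones that fell, Psat1 from 1410.2, 1497 and 1551 to 861.9, 887.3 and 924.8 (log2 fold change -0.74 ± 0.05, adjusted p = 7.0e-24) and Phgdh from 489.8, 527.7 and 581.5 to 307.7, 332.5 and 375.6 (log2 fold change -0.65 ± 0.10, adjusted p = 2.6e-08). Atf4 (0.20 ± 0.05), Trib3 (0.49 ± 0.10) and Asns (-0.18 ± 0.06) did not pass.

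The change with OHT was set against that in IL3 (168h minus start in GCSF, less the same in IL3), and 8 members differed, beside 25.7% of all genes. The difference was positive in 6, from 0.65 for Trib3 and 0.66 for Ddit3 through 0.88 for Atf4, 1.12 for Atf5 and 1.36 for Chac1 to 6.97 for Slc7a11. It was negative for Psat1 (-0.83 ± 0.08) and Sesn2 (-0.77 ± 0.16). The starts differ, since GCSF 0h stood -3.82 log2 units from the undifferentiated cells in Slc7a11 and the IL3 course started from the latter.

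Over the 25 time points that entered the fit in both cytokines, GCSF conditions were lower than IL3 conditions in 5 members and higher in 2, beside 15.1% and 9.34% of all genes. The fit left out IL3-OHT 96h and 144h, as the study did, and with them the same number of members passed. Trib3 had time-point means from 356.2 to 790.1 (median 503.6) in GCSF and from 850.7 to 2752 (median 1552) in IL3 (log2 fold change -1.54 ± 0.02, adjusted p = 5.5e-99). Ddit3 means ran from 663.5 to 1301 (median 862.3) in GCSF and from 912.1 to 4403 (median 2010.2) in IL3 (log2 fold change -0.98 ± 0.01, adjusted p = 1.1e-96). In these genes, and in Atf4 and Sesn2, the IL3 mean was the higher at 25 of 25 time points. Atf4 means ran from 3600.1 to 4597 (median 4001) in GCSF and from 3992 to 10611 (median 5691) in IL3 (-0.60 ± 0.01), and Sesn2 means from 686.8 to 3597 (median 2591) in GCSF and from 1078 to 7353 (median 4512) in IL3 (-0.81 ± 0.02).

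Chac1 was the reverse, with means from 338.6 to 788.6 (median 534.2) in GCSF and from 177.5 to 474.9 (median 307.6) in IL3, and GCSF was higher at 24 of 25 time points (log2 fold change 0.89 ± 0.02, adjusted p = 8.6e-71). Psat1 was lower in GCSF (-0.66 ± 0.01), with the IL3 mean higher at 22 of 25. Slc7a11 averaged higher in GCSF (0.71 ± 0.04), but the GCSF mean was higher at 15 time points and the IL3 mean at 10, so the average joins time points before 32h and 48h, where IL3 was higher, with the later ones, where GCSF was. Asns (-0.12 ± 0.01), Phgdh (-0.12 ± 0.02) and Atf5 (-0.29 ± 0.01) did not pass the fold threshold, although each had an adjusted p far under 0.05. Without the 120h libraries, whose names carry another prefix, the same number of members passed.

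**Figure D3:**
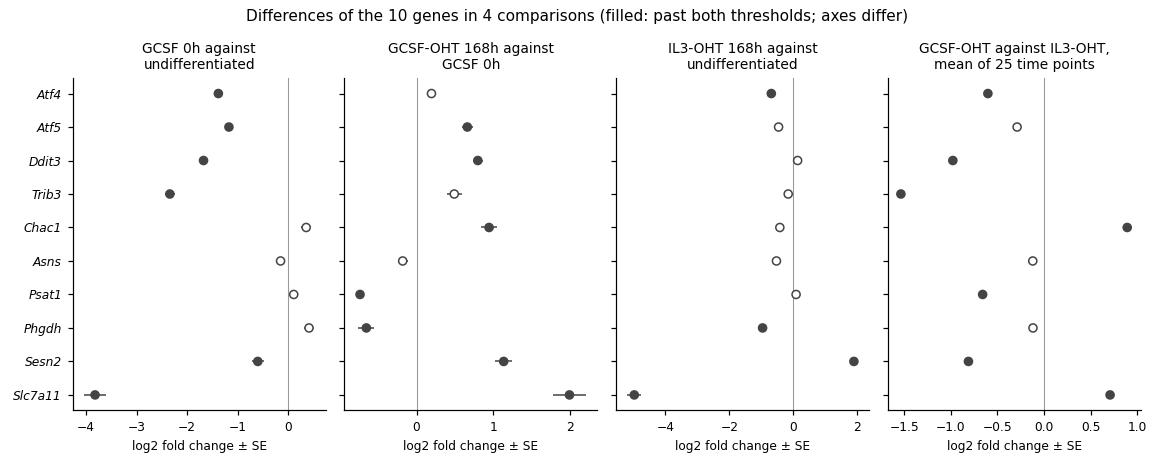
Log2 fold change (x axis, ± SE from limma, scale differs by panel) of the 10 genes in 4 comparisons, with filled points past both thresholds. After GCSF pre-treatment Slc7a11 lies at -3.82 and Trib3 at -2.34, and in GCSF against IL3 conditions Chac1 and Slc7a11 are the points right of 0.

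Within each course nearly all members changed over time (F test of all time points against the start, with a largest log2 difference over 0.58). In GCSF 9 of 10 passed, beside 47.7% of all genes, with Atf4 the exception as its largest difference was 0.43. In IL3 all 10 passed, beside 69.7%. The Slc7a11 course in IL3 spanned the widest range, from 3415 ± 236.7 (SD, n = 3) at 1h to 16.6 ± 4.18 at 128h, a ratio of 206.4 between the means. The 128h libraries held 9 to 16 reads of the gene, above the floor of 3. Sesn2 ranged from 1078 ± 105.5 at 2h to 7353 ± 211.1 at 120h in IL3, where the next highest mean, 7320.4 at 80h, lies within 1 SD. Atf4 was highest at 10611 ± 600.5 at 1h and lowest at 3992 ± 420.04 at 24h, where 20h (4004) lies within 1 SD.

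The highest means of the other members in IL3 fell at different times. Phgdh peaked at 12h (885.5 ± 87.9), where 8h (862.7) is within 1 SD, and was lowest at 168h. Psat1, which acts after Phgdh in the same pathway, peaked at 64h (3304 ± 145.3), with 56h (3235) within 1 SD. Asns peaked at 88h (1509.8 ± 89.4), with 64h (1496) within 1 SD. Ddit3 and Trib3 peaked together at 136h, and for Ddit3 the next mean, 3859 at 128h, lies more than 1 SD away. Chac1 peaked at 3h (474.9 ± 32.6), with 64h (442.5) within 1 SD.

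In GCSF the ranges were narrower. Ddit3 was lowest at GCSF 0h (635.5) and highest at 128h (1301 ± 13.2), and 144h (1296) was within 1 SD. Trib3 and Chac1 also peaked at 128h, at 790.1 ± 73.1 and 788.6 ± 38.9, and for Trib3 136h (765.9) was within 1 SD. Psat1 peaked at 72h (1676 ± 143.4), with 40h (1627) within 1 SD, and was lowest at 144h (842.02 ± 54.9). Asns peaked at 88h here too (1169 ± 110.3), with 80h (1098) within 1 SD. Phgdh peaked at 96h (602.1 ± 76.4, n = 2), with 72h (591.5) within 1 SD. Slc7a11 was lowest at 32h (50.6 ± 6.04), where 48h (51.4) was within 1 SD, and highest at 144h (711.3 ± 77.1), the time point after the last replacement.

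Across the 54 time-point means of the fit, which share libraries and normalization, Pearson's r of the log2 means was 0.92 for Ddit3 with Trib3, 0.88 for Atf4 with Trib3 and 0.85 for Atf4 with Ddit3. Within GCSF these were 0.79, 0.45 and 0.59, and within IL3 0.93, 0.83 and 0.70. Atf5 had r of 0.51 with Atf4, 0.37 with Ddit3 and 0.47 with Trib3. Asns had r of 0.53 with Psat1 and 0.52 with Phgdh, and 0.24 with Atf4. Chac1 was at -0.53 with Trib3 over both courses, but at 0.69 within GCSF and 0.28 within IL3. Slc7a11 and Sesn2 were at -0.88 within IL3 and 0.29 within GCSF.

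Among 12288 other genes with a mean of at least 10, those most like the mean z-score of the members over the same 54 points were Cox6a2 (r = 0.86), a cytochrome c oxidase subunit, Slc6a9 (0.85), a glycine transporter, Mthfd2 (0.80), a mitochondrial one-carbon enzyme, and Mvd (0.80), of the mevalonate pathway. Then came 1700012B09Rik (0.79), Soat2 (0.78), Hmox1 (0.78), Tbc1d10a (0.77), Stk40 (0.77) and Csta2 (0.77). Of the members themselves Trib3 had the highest r with this score (0.83) and Chac1 the lowest (-0.11).

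The rest of the pathway was read from 7 lists of 51 further genes, of which 50 were tested in the fit of 54 groups. After GCSF pre-treatment 23 were lower, beside 20.7% of all genes, and 6 were higher. In either direction 33.7% of all genes passed. The median log2 fold change of the lists was -0.52, beside -0.09 for all genes. Atf3, a stress-induced bZIP factor, went from 2099, 2120.3 and 2132 to 46.04, 56.9 and 60.99 (-5.26 ± 0.15), and all 4 genes of the list that holds Atf3 fell. Aldh1l2, a mitochondrial folate enzyme, went from 1376, 1442 and 1472 to 38.2, 83.2 and 116.9 (-4.29 ± 0.24). Pycr1, of proline synthesis, was -1.69 ± 0.10. Ppp1r15a, the phosphatase subunit that reverses eIF2alpha phosphorylation, was -1.74 ± 0.09, whereas the eIF2alpha kinase gene Eif2ak2 rose (0.76 ± 0.08).

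Of 8 amino acid transporters 6 were lower at GCSF-OHT 168h and 6 at IL3-OHT 168h, beside 23.6% and 15.2% of all genes, with Slc7a5, which imports large neutral amino acids, at -1.92 ± 0.07 and -1.52 ± 0.07. Of 11 aminoacyl-tRNA synthetases 8 were lower at GCSF-OHT 168h and 3 at IL3-OHT 168h, beside the same shares. Ddit4, an inhibitor of mTORC1, was higher at both, at 2.15 ± 0.16 and 3.75 ± 0.16. Over the shared time points 14 of the 50 genes were lower in GCSF than in IL3 conditions, beside 15.1% of all genes (median -0.37, beside -0.06). They were led by Aldh1l2 (-2.37 ± 0.05), Pycr1 (-1.53 ± 0.02), Slc1a4 (-1.51 ± 0.07) and Gpt2 (-1.37 ± 0.02).

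After the replacement at 88h in IL3 conditions 4 of 8 amino acid transporters rose and 1 fell, beside 10.8% and 9.27% of all genes, and 4 of 7 other amino acid enzymes fell. Slc7a5 went from 1523, 1536 and 1623 to 3588, 3763 and 3924 (1.27 ± 0.08) and Slc1a5, a glutamine transporter, was 0.83 ± 0.08. Pck2, a mitochondrial carboxykinase, went from 1559, 1748 and 1841 to 609.2, 620.1 and 627.98 (-1.47 ± 0.09), Cth was -1.50 ± 0.34 and Gpt2 -1.21 ± 0.11. The transporter that fell was Slc6a9 (-1.29 ± 0.20).

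At 136h 5 of the 8 transporters rose and 1 fell, beside 14% and 11.8% of all genes, and of the 7 other amino acid enzymes Pck2 fell (-1.55 ± 0.09) while none rose. Shmt1 (0.89 ± 0.09) and Shmt2 (0.87 ± 0.07), which convert serine to glycine, rose. Slc7a5 went from 1004, 1084 and 1183 to 2931, 3157 and 4021 (1.62 ± 0.08), without overlap. Slc7a3 rose from 3.51, 6.23 and 7.66 (2.08 ± 0.30), values near the floor of 3 reads. Among the other ATF4 targets 5 fell and 1 rose. Gdf15, a secreted stress factor, went from 5988, 7019.9 and 7400.0 to 1226, 1304 and 1579.5 (-2.31 ± 0.14), and Bbc3, which promotes apoptosis, was -1.72 ± 0.15. Of the tRNA synthetases Cars fell at both replacements (-0.89 ± 0.05 and -1.11 ± 0.05) and so did Sars (-0.67 ± 0.05 and -0.72 ± 0.05), while the other 9 of 11 did not pass at either.

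Over the 7 lists 20 of the 50 genes passed at 88h and 19 at 136h in IL3 conditions, where 20% and 25.8% of all genes passed in either direction. In GCSF 6 and 1 passed, where 5.20% and 3.37% of all genes did, so that fewer genes passed in GCSF over the whole table too. In GCSF Pycr1 fell after both (-0.77 ± 0.11 and -0.78 ± 0.10), and Aldh1l2 (-1.58 ± 0.27) and Ddit4 (-0.88 ± 0.18) fell after the replacement at 88h. The difference between cytokines passed for Slc7a5 at 88h (-0.997 ± 0.12) and 136h (-1.84 ± 0.11), and for Pck2 (1.12 ± 0.13 and 1.18 ± 0.12), Cars (0.77 ± 0.08 and 1.01 ± 0.07) and Gdf15 (0.85 ± 0.21 and 1.86 ± 0.20).

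**Figure D4:**
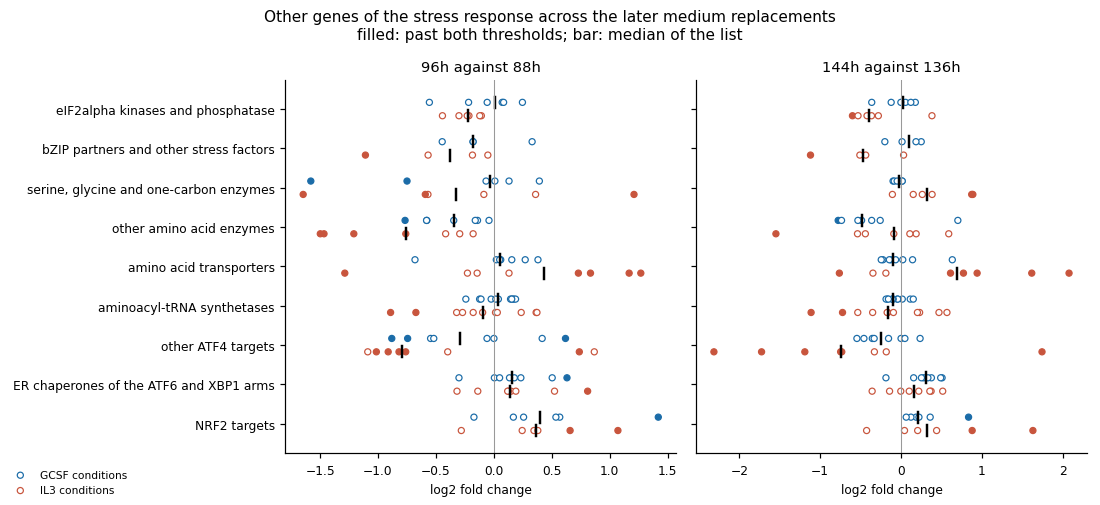
Log2 fold change (x axis) of every tested gene of 9 lists 8 h after the medium replacements at 88h and 136h, blue for GCSF and red for IL3 conditions, filled where past both thresholds, with a bar at the median of each list. Among amino acid transporters Slc7a5 in IL3 lies at 1.27 and 1.62, while Pck2, among the other amino acid enzymes, lies at -1.47 and -1.55.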

How the data were processed

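PolyA RNA libraries of 165 cultures had been sequenced as paired reads. The authors used Salmon with GRCm38 (mm10) to quantify transcripts and deposited a table of gene counts divided by DESeq2 size factors, a signal in which counts compare between libraries. Whole reads were recovered from the step of the lowest values of the deposited table, with a largest relative deviation of 6.8e-15. The genes and lists were chosen with earlier results of these data known. Groups came from the labels. GCSF 0h titles name OHT, but the descriptions place the cells before it, and the descriptions were followed.

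Values were tested as log2(normalized count + 1) in limma 3.58.1 (R 4.3.3) with a trended prior, with 1 mean per group, for genes with at least 5 in 1 library (17414 genes in the fit of 54 groups, 17439 in that of 56). The text names all members, in each list up to 3 called genes per comparison with the largest fold change, and the 10 genes most like the members. Slc1a5 at 88h in IL3 and the markers Mpo, Elane, Egr2, Adgre1 and Mmp12 were named outside that rule, after their values were seen. The cytokine differences at medium replacements, the fit without 120h and that with IL3-OHT 96h and 144h were also added after the values were seen. Alternatives were a pseudocount of 5, no filter, a mean of at least 10, upper-quartile scaling, leaving out each replicate number, a replicate block, and edgeR 4.0.16 and DESeq2 1.42.0 on recovered reads. Fold changes are on the log2(value + 1) scale, which understates changes of low genes. The fit was tested on simulated data. The ± values are SEs from limma or SDs, and both measure the spread between libraries. The floor of 3 reads covers counting error only. Promoters came from RefSeq and positions from GENCODE vM21.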

Additional observations from a re-analysis of the deposited data

Results flagged for a closer look

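Differences between the cytokines in the same change were tested by an interaction term, and members that passed both thresholds are given here as the GCSF change minus the IL3 change on the log2 scale. For OHT, 168h against the start, these were Atf4 (0.88 ± 0.08), Atf5 (1.12 ± 0.10), Ddit3 (0.66 ± 0.09), Trib3 (0.65 ± 0.14), Chac1 (1.36 ± 0.15), Psat1 (-0.83 ± 0.08), Sesn2 (-0.77 ± 0.16) and Slc7a11 (6.97 ± 0.30). For the medium replacement at 40h it was Sesn2 (0.59 ± 0.16). For that at 88h they were Atf5 (-0.76 ± 0.11), Ddit3 (0.93 ± 0.10) and Asns (0.73 ± 0.10). For that at 136h they were Atf4 (0.64 ± 0.08), Ddit3 (1.19 ± 0.09), Psat1 (-0.67 ± 0.08) and Slc7a11 (-1.95 ± 0.30). No group held 4 or more libraries, so no library was tested against the rest of its group.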

How the results depend on the processing

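The 65 pairs of a member and a comparison that passed were recomputed under the alternatives. None changed direction, 59 passed under every one, and the values of the other 6 stand beside them in the report. The number of members called moved by over 1.5 times in few cases. For the cytokine difference at 40h it was 1 and became 0 with DESeq2 and 0 to 2 on leaving out a replicate number. For 8h to 12h in GCSF it was 1 and ran from 1 to 2, and for the 40h replacement in GCSF it was 0 and ran from 0 to 1 without 1 replicate number. Over all genes, leaving out replicate 1 took the 40h replacement in GCSF from 148 called genes to 59, replicate 2 took 8h to 12h in GCSF from 465 to 256 and the 40h replacement in IL3 from 113 to 41, and replicate 3 took the last to 57. The cause was not tested. Replicate numbers did not pair the samples: same-numbered libraries had deviations from their group means that correlated at -0.080 to 0.046 over 35 pairs of 12 comparisons, and with the replicate block all 65 calls held. Depth limits the low values of Slc7a11 and Slc7a3.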

Other observations

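Other stress arms were measured in the same libraries. The 6 NRF2 targets, which answer oxidative stress as Slc7a11 also does, changed with the cytokine. After GCSF pre-treatment 4 fell, beside 20.7% of all genes. They were led by Hmox1, the haem oxygenase, from 10357, 10622 and 11032 to 351.4, 370.6 and 409.9 (-4.82 ± 0.10). In GCSF conditions Hmox1 then rose over the 168 h of OHT (3.41 ± 0.10). At IL3-OHT 168h 5 of the 6 were lower than in undifferentiated cells, beside 15.2% of all genes. Among them were Srxn1 (-2.68 ± 0.07) and Txnrd1 (-2.17 ± 0.05). All 6 had a positive difference of the OHT change, GCSF minus IL3, past both thresholds, where 25.7% of all genes passed in either direction. Nqo1, a quinone reductase, rose after the replacements at 88h and 136h in both cytokines (1.42 ± 0.18 and 0.83 ± 0.16 in GCSF, 1.07 ± 0.16 and 1.63 ± 0.16 in IL3), as Slc7a11 did.

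Of 8 chaperones and factors of the ATF6 and XBP1 arms 6 were lower at GCSF-OHT 168h, beside 23.6% of all genes, and 2 at IL3-OHT 168h, beside 15.2%. Hspa5, the chaperone BiP, was 47878, 48471 and 49849 in undifferentiated cells, 11729, 11904 and 12855 at GCSF-OHT 168h and 29439, 29817 and 30311 at IL3-OHT 168h. After the replacement at 88h in IL3 it rose from 28152, 28912 and 29097 to 49083, 50101 and 51726 (0.81 ± 0.05), the step at which Ddit3 fell. After the same replacement in GCSF Hspa5 was also higher (0.50 ± 0.05, adjusted p = 4.3e-14 by limma), under the fold threshold. Ddit3 was 0.03 ± 0.07 there, so the higher Hspa5 did not go with a fall of Ddit3 in GCSF. No explanation of these patterns was tested.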
